A study of Mus musculus with 8 samples.

Results

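The genes described here are the nuclear genes of respiratory complexes II, III, IV and V, with cytochrome c, in mouse melanoma cells. They were chosen by gene symbol alone, as symbols beginning with Sdha to Sdhd or Sdhaf, Uqcr or Uqcc, Cyc1, Cycs, Cox5 to Cox8, or Atp5, without a hyphen. The rule found 56 rows of the 55414 in the table, of which 8 belonged to complex II, 12 to complex III, 1 was the cytochrome c gene Cycs, 17 belonged to complex IV and 18 to complex V. The symbols also took in genes that are not structural subunits: the complex II assembly factors Sdhaf1 to Sdhaf4, the complex III assembly factors Uqcc1 to Uqcc3, and Cox6c2, which the annotation lists as a processed pseudogene (a copy of an mRNA inserted into the genome). They missed subunits that carry other symbols, such as Cox4i1 and Ndufa4 of complex IV, which are given separately. A further 11 hyphenated rows, copies such as Cox7c-ps1, stayed outside.

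The study asked how cyclophilin D (CypD, encoded by Ppif), a mitochondrial regulator of the permeability transition pore, affects gene expression in B16F10 cells, a mouse skin melanoma line. RNA-seq was made from 8 libraries in 4 groups of 2. WT cells were unmodified B16F10 cells and CypD KO cells carried a CRISPR/Cas9 disruption of Ppif and were puromycin-selected clones, and both were kept at 21% O2 for 24 h. Control cells were stably transfected with pcDNA alone, and CypD OE cells with pcDNA carrying Ppif. Both were selected as G418-resistant clones, and both were kept at 1% O2 for 24 h. Whether each line was a single clone or a pool was not given in the sources used here, nor whether the 2 libraries of a group were separate cultures, so p-values measure only the spread between these libraries, which may be technical. The comparison of Control with WT changes oxygen, vector and drug selection at once, and these cannot be told apart. CypD KO and WT likewise differ in transfection and puromycin selection as well as in Ppif, and these cannot be told apart either. CypD OE and Control are separately selected lines, so differences between lines cannot be told apart from those of the Ppif construct.

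Oxidative phosphorylation passes electrons along complexes in the inner mitochondrial membrane and uses the resulting proton gradient to make ATP. Complex II (succinate dehydrogenase) feeds electrons from succinate to ubiquinone, complex III (cytochrome bc1) hands them to cytochrome c, complex IV (cytochrome c oxidase) passes them to oxygen, and complex V (ATP synthase) uses the gradient. Complex II is wholly encoded in the nucleus, whereas complexes III, IV and V also hold subunits encoded in mitochondrial DNA. In complexes III and IV small nuclear subunits surround a catalytic core.

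Promoters of 4 genes are shown as examples and were not picked by a fixed rule. Cox6a1 had the largest increase in CypD KO cells among members that passed the test, and Cox7c increased in both CypD comparisons. Atp5g2 and Atp5e fell in CypD OE cells, where the largest fall, that of Sdhaf4 (log2 fold change -0.99), is not shown. Each window runs from 250 bases before to 50 bases after the annotated start, from RefSeq on build GRCm38.p6, printed 5′ to 3′ on the gene's strand. These windows are on another build than the expression table, so their coordinates are not to be mixed with the GRCm39 positions given elsewhere. Capitals mark matches on either strand to GCATGCGC (part of the NRF1 motif), CCGGAAG (ETS family), AAGGTCA (ERR family) or ACGTG (core of the hypoxia response element). Cox6a1 lies at chr5:115348909-115349208 and holds the NRF1 and ETS letters, Cox7c at chr13:86046746-86047045 and holds none of the 4 motifs, Atp5g2 at chr15:102670998-102671297 and holds the NRF1 and hypoxia letters, and Atp5e at chr2:174464052-174464351 and holds the ETS and ERR letters, all on the minus strand.
Cox6a1: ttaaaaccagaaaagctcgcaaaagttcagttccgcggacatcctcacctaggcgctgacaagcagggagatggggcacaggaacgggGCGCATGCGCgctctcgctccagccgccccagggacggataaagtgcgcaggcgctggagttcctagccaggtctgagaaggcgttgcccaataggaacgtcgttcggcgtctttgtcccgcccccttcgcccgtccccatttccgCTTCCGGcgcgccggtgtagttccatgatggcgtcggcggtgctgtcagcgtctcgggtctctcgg
Cox7c: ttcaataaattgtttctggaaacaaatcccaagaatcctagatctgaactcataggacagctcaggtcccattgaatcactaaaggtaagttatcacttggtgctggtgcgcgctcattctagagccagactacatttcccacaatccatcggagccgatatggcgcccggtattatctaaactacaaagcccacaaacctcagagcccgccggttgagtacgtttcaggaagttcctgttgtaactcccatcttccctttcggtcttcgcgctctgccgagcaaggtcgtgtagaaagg
Atp5g2: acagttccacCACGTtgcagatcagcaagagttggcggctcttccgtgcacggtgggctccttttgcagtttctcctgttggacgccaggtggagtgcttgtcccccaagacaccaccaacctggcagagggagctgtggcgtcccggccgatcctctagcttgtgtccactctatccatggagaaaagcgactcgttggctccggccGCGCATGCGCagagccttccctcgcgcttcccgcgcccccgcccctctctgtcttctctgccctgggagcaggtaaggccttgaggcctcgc
Atp5e: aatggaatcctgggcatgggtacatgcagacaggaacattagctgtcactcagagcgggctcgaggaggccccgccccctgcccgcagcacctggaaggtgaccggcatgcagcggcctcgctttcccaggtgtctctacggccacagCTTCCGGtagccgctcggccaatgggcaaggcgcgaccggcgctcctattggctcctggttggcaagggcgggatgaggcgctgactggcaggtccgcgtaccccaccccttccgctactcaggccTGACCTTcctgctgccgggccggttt

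Of 55 different member symbols, 44 had a window, and these had 47 windows in all. The ETS letters were in 16 of the 47 windows (34.0%), against 8.9% of all 32851 windows. The NRF1 letters were in 8 (17.0%, against 2.7%), the ERR letters in 6 (12.8%, against 4.7%) and the hypoxia letters in 15 (31.9%, against 19.6%). None of these 4 motifs is contained in another, but the NRF1 letters overlap themselves on the opposite strand, so the 10-letter runs in Cox6a1 and Atp5g2 match on both strands. These are matches of letters and were not tested as binding sites. The set of all windows includes genes that were not tested here, and it was not matched to the members in expression level or base content.

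The libraries were checked against their labels before the results. Levels are in TPM, which is scaled by transcript length and by the total of each library. The WT libraries had 50.7 and 50.0 TPM of Ppif and the CypD KO libraries 10.4 and 12.1, so that the log2 fold change was -2.07 ± 0.07 (n = 2 libraries a group; ± is the SE from limma throughout; limma adjusted p = 3.81e-06). Control had 44.6 and 42.2 TPM of Ppif and the libraries labelled CypD OE 50.3 and 49.3, a difference of 0.19 ± 0.07 that did not pass the test (adjusted p = 0.0794). The paper reports CypD overexpression in its stable cells at the protein level, by western blot, and protein was not measured here. Of 10 hypoxia (HIF1) target genes, 9 were higher in CypD KO than in WT, all 10 were higher in Control than in WT, and all 10 were lower in CypD OE than in Control. Bnip3, a mitophagy receptor, showed 14.4 and 11.1 TPM in WT and 258 and 249 in CypD KO. Control had 311 and 307 TPM and CypD OE 13.6 and 12.5. The libraries labelled CypD OE at 1% O2 had the levels of WT at 21% O2 for this gene, and the part of HIF1 targets in the results was not tested. The melanocyte markers Mlana, Pmel, Tyr, Tyrp1, Dct, Mitf and Sox10 were all tested, with summed levels of 15755 and 15664 TPM in WT and 12588 and 12431 in CypD KO. The levels were 20446 and 20984 TPM in Control and 13758 and 13587 in CypD OE. Tyrp1 made up the largest part of this sum, and single markers differed from it: 1 was higher and 5 lower in CypD KO, 1 higher and 4 lower in CypD OE, and 6 higher in Control against WT. The 1 that was higher was Tyr in CypD KO (log2 fold change 1.97) and Sox10 in CypD OE (0.20). The 5 fibroblast markers summed to 2.42 to 11.9 TPM, with Dcn at 0 in every library, and of the 3 leukocyte markers Cd3e was at 0 in every library, Ptprc was at most 0.0200 TPM and Cd68 was at 21.9 and 23.3 TPM in CypD KO against 3.75 and 3.45 in WT. Cd68 was also lower in CypD OE, at 1.13 and 1.91 TPM against 4.81 and 4.2 in Control (limma adjusted p = 0.00205). Col1a2, the 1 fibroblast marker that was tested, was lower in both CypD comparisons (-1.79, adjusted p = 0.00176, and -1.54, adjusted p = 0.00482). The part of these markers in the results was not tested. In bulk RNA, fewer cells of a type and less RNA per cell cannot be told apart.

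Of the 56 members, 49 reached 1 TPM in at least 2 libraries and were tested among 13526 genes. The other 7 were Cox6a2, Cox6b2, Cox7a1, Cox7b2, Cox8b, Cox8c and a second Atp5o row (ENSMUSG00000116933, a gene model overlapping Atp5o, listed at 0 in every library). Within groups, the tested members' 2 libraries differed by a median of 0.032 to 0.076 on the log2 scale. The nuclear members together took 1.31% to 1.56% of all TPM.

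**Figure D1:**
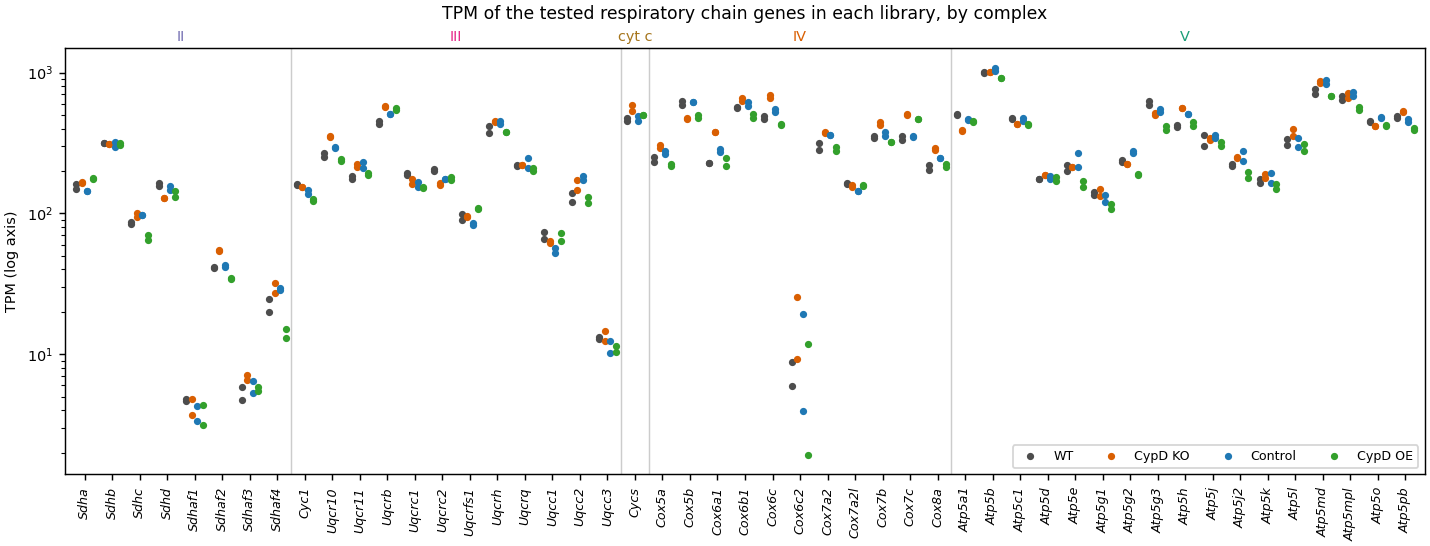
TPM on a log axis (y) for each of the 49 tested genes (x), ordered by complex, with 1 point per library and 1 colour per group. Atp5b lies highest, at up to 1083 TPM in 1 Control library, and the assembly factors Sdhaf1, Sdhaf3, Sdhaf4 and Uqcc3 and the pseudogene Cox6c2 lie lowest.

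CypD KO cells showed higher levels of complex IV genes than WT cells, with 8 of 11 tested genes higher. Lower calls in complex III (2 of 12) and complex V (4 of 17) were near the share over all tested genes. In CypD KO 19 of the 49 tested members were higher (38.8%) and 8 lower (16.3%), where 30.1% of all tested genes were higher and 18.4% lower. The members' median log2 fold change was 0.12, against 0.09 over all genes, and it was -0.09 after a fit on coding length was subtracted. A rescaling by median-of-ratios size factors, which moved the median of all genes from 0.09 to -0.007, left 12 members higher and 14 lower, while all genes went from 4066 higher and 2486 lower to 3204 and 3481. Under it complex II had 1 gene higher and 2 lower, complex III 3 and 4, complex IV 7 and 2 and complex V 1 and 6, and Atp5md, Atp5pb, Cox6b1, Cycs, Sdhaf4, Sdhc and Uqcrh no longer passed the test. No called member changed sign.

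CypD OE cells showed lower levels than Control in complexes IV and V. Of 49 members, 6 were higher (12.2%) and 27 were lower (55.1%), where 19.0% of all tested genes were higher and 18.3% lower. The members' median log2 fold change was -0.19, against 0.00 over all genes. Control cells differed less from WT, with 13 members higher (26.5%, against 12.1% of all genes) and 7 lower (14.3%, against 12.1%), and a median of 0.07 against 0.01. Under the median-of-ratios rescaling Cox5a and Atp5o no longer passed the test in Control against WT. No member that passed the test in any of the 3 comparisons had overlapping libraries. With 2 libraries a group, passing the test makes this likely for any gene, and the share over all genes was not counted.

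**Figure D2:**
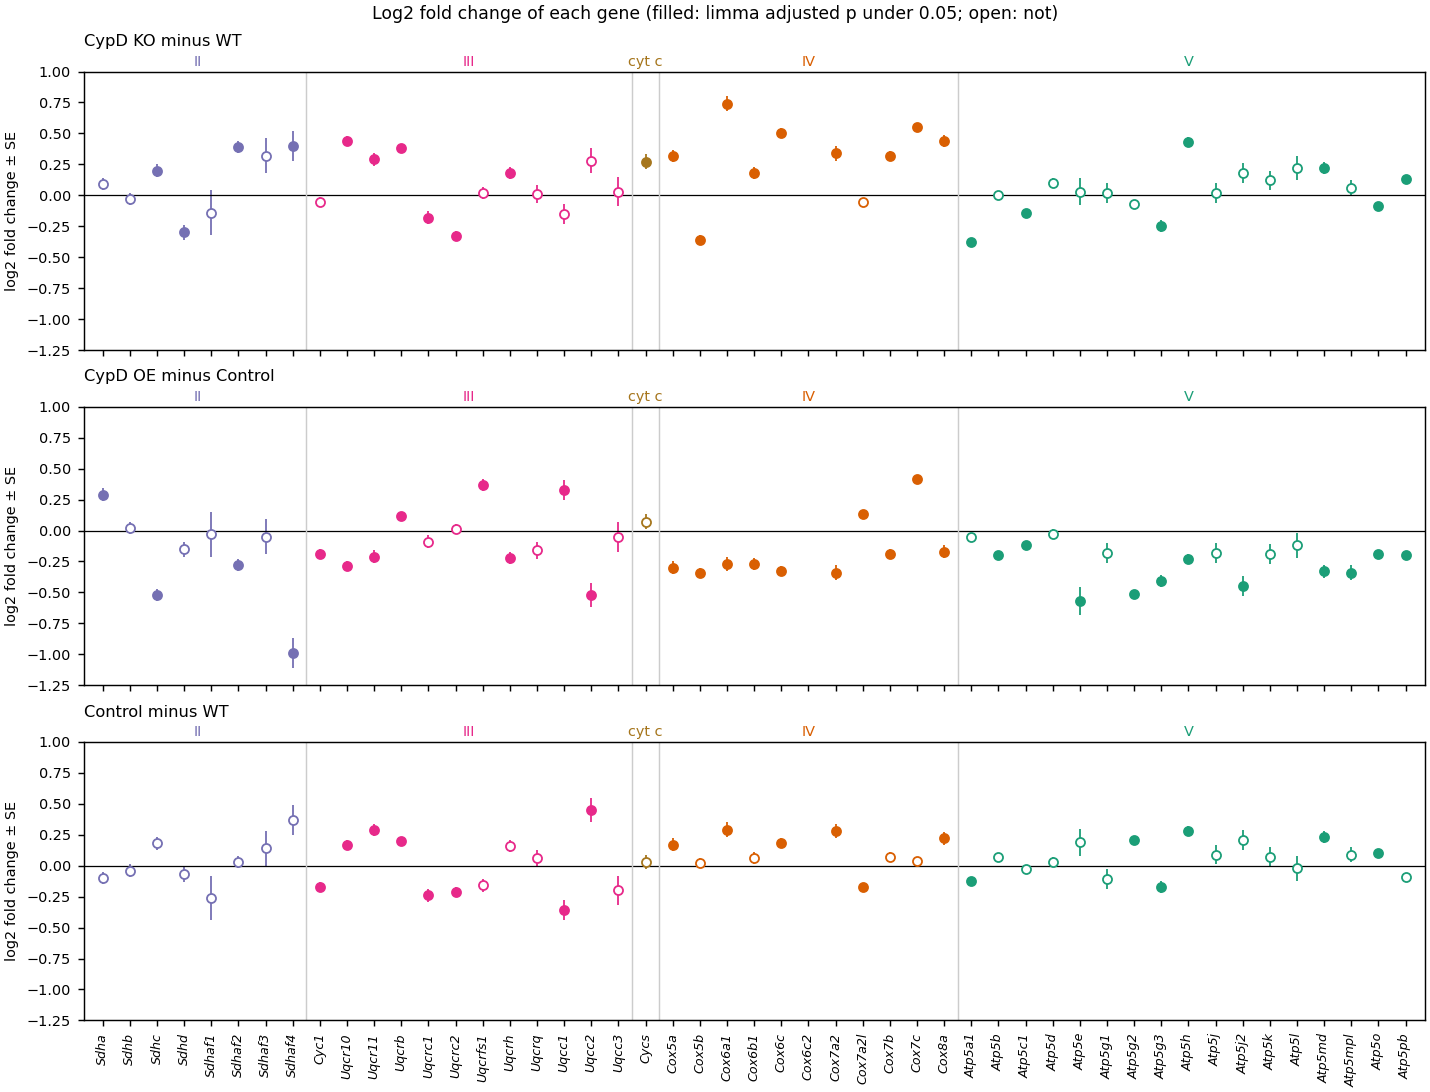
Log2 fold change ± SE (y) of each tested gene (x) in the CypD KO, CypD OE and Control comparisons (top to bottom: with WT, with Control, with WT), coloured by complex, with filled points for a limma adjusted p under 0.05 and open points otherwise, and the pseudogene Cox6c2 left out. Complex IV lies mostly above 0 in CypD KO (8 higher, 1 lower) and mostly below 0 in CypD OE (2 higher, 8 lower).

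Complex II had 3 of 8 genes higher and 1 lower in CypD KO, 1 higher and 3 lower in CypD OE, and 0 past the limma test in either direction in Control against WT (2 higher and 0 lower at an unadjusted p under 0.05), where the log2 fold changes were from -0.26 to 0.37. Over all tested genes, 30.1% were higher and 18.4% lower in CypD KO, 19.0% and 18.3% in CypD OE, and 12.1% and 12.1% in Control against WT. The complex II counts in CypD KO were near those shares. The catalytic flavoprotein Sdha (chr13:74469359-74498436) stood at 162 and 148 TPM in WT and 164 and 166 in CypD KO. In Control the levels were 145 and 143 TPM, and in CypD OE 176 and 179. Sdha was higher in CypD OE than in Control by 0.29 ± 0.05 (limma adjusted p = 0.00274). The iron-sulfur subunit Sdhb was the most abundant gene of the complex, at 318 and 314 TPM in WT and 309 and 310 in CypD KO. At 1% O2, Control had 294 and 323 TPM and CypD OE 317 and 308. Sdhb passed the test in no comparison. The membrane anchors went separate ways. Sdhc, at 84.2 and 86.3 TPM in WT and 101 and 94.3 in CypD KO, rose by 0.20 ± 0.05 (adjusted p = 0.0223), and between 97.0 and 96.7 TPM in Control and 64.3 and 69.8 in CypD OE it fell by 0.52 ± 0.05 (adjusted p = 0.000494). Sdhd, the other anchor, went from 164 and 156 TPM in WT to 129 and 129 in CypD KO, a fall of 0.30 ± 0.06 (adjusted p = 0.00446), and its levels of 147 and 157 in Control and 144 and 131 in CypD OE did not pass the test.

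Among the complex II assembly factors, which help attach the cofactor or join the subunits, Sdhaf4 (chr1:24034185-24044758) had the largest decrease of any tested member. It stood at 20.0 and 24.5 TPM in WT and 31.8 and 27.4 in CypD KO. The Control libraries had 28.4 and 29.6 TPM and the CypD OE libraries 15.2 and 13.1. The CypD OE libraries were the lowest and did not overlap with those of any other group, with a log2 fold change against Control of -0.99 ± 0.12 (limma adjusted p = 0.00113). Sdhaf2, which attaches FAD to SDHA, moved similarly, from 40.6 and 41.8 TPM in WT to 54.5 and 54.4 in CypD KO (0.39 ± 0.05, adjusted p = 0.000498), and from 41.5 and 42.9 in Control to 34.1 and 35.0 in CypD OE (-0.28 ± 0.05, adjusted p = 0.00334). Sdhaf1 and Sdhaf3, both at or below 7.15 TPM in every library, passed the test in no comparison.

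Complex III had 4 of 12 genes higher and 2 lower in CypD KO, 3 higher and 5 lower in CypD OE, and 4 higher and 4 lower in Control against WT. In CypD KO both counts were near the shares over all tested genes (30.1% higher and 18.4% lower). Those shares were 19.0% and 18.3% in CypD OE and 12.1% and 12.1% in Control against WT. The small subunit Uqcr10 (chr11:4651968-4654653) stood at 268 and 251 TPM in WT and 348 and 356 in CypD KO. Levels in Control were 289 and 297 TPM and in CypD OE 242 and 236. Uqcr10 was the most increased gene of this complex in CypD KO, by 0.44 ± 0.04 (limma adjusted p = 0.000147), and it fell by 0.29 ± 0.04 in CypD OE (adjusted p = 0.0015). Uqcr11, another small subunit, had 183 and 176 TPM in WT and 224 and 215 in CypD KO. Control had 209 and 231 TPM and CypD OE 186 and 193. Uqcr11 was higher in Control than in WT by 0.29 ± 0.05 (adjusted p = 0.00926), a call that was lost without WT replicate 2 (0.26). Uqcrh, the hinge protein that binds cytochrome c1, had 417 and 372 TPM in WT and 451 and 444 in CypD KO. The levels were 429 and 453 TPM in Control and 379 and 378 in CypD OE. This was a rise of 0.18 ± 0.05 in CypD KO (adjusted p = 0.0298) and a fall of 0.22 ± 0.05 in CypD OE (adjusted p = 0.0192). Uqcrb, which had the highest level in the complex, was higher in all 3 comparisons: 432 and 454 TPM in WT and 571 and 580 in CypD KO. In Control the levels were 510 and 508 TPM, and in CypD OE 540 and 563. The differences of Uqcrb were 0.38 in CypD KO, 0.12 in CypD OE and 0.20 in Control against WT, and that in CypD OE did not pass the test after the median-of-ratios rescaling.

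The larger core proteins of complex III moved otherwise. Uqcrc2 (chr7:120233976-120260035) stood at 205 and 201 TPM in WT and 165 and 158 in CypD KO. At 1% O2, Control had 174 and 175 TPM and CypD OE 181 and 172. Uqcrc2 was lower in CypD KO by 0.33 ± 0.04 (limma adjusted p = 0.000567) and in Control by 0.21 ± 0.04 (adjusted p = 0.00926) than in WT. Uqcrc1 had 192 and 188 TPM in WT and 161 and 174 in CypD KO. The Control libraries had 167 and 155 TPM and the CypD OE libraries 151 and 153. Uqcrc1 was lower in Control than in WT by 0.24 ± 0.05 (adjusted p = 0.019) and in CypD KO by 0.18 ± 0.05 (adjusted p = 0.0252). The WT libraries were the highest of the 4 groups for both core proteins. In Control against WT the call of Uqcrc1 was lost without Control replicate 2 (-0.18), WT replicate 1 (-0.22) or WT replicate 2 (-0.25), and that of Uqcrc2 without WT replicate 1 (-0.20). Cyc1, cytochrome c1, had 160 and 161 TPM in WT and 155 and 155 in CypD KO. Levels in Control were 137 and 147 TPM and in CypD OE 127 and 122. Cyc1 fell by 0.17 ± 0.04 in Control against WT (adjusted p = 0.0268) and by 0.19 ± 0.04 in CypD OE against Control (adjusted p = 0.0131), and the first call was lost without Control replicate 1 (-0.12), WT replicate 1 (-0.18) or WT replicate 2 (-0.17). Uqcrfs1 (chr13:30723448-30729345), the Rieske iron-sulfur protein, had 98.2 and 89.5 TPM in WT and 95.5 and 94.2 in CypD KO. Control had 82.3 and 85.9 TPM and CypD OE 109 and 108. This was a rise of 0.37 ± 0.05 in CypD OE (adjusted p = 0.00177).

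The complex III assembly factors Uqcc1 and Uqcc2 changed in opposite directions. Uqcc1 had 66.1 and 74.0 TPM in WT and 63.9 and 62.0 in CypD KO. The levels were 52.2 and 56.3 TPM in Control and 64.0 and 73.0 in CypD OE. Uqcc1 was lower in Control than in WT by 0.36 ± 0.08 (limma adjusted p = 0.0208) and higher in CypD OE than in Control by 0.33 ± 0.08 (adjusted p = 0.0192). Uqcc2 had 139 and 121 TPM in WT and 172 and 146 in CypD KO. In Control the levels were 172 and 185 TPM, and in CypD OE 131 and 118. Uqcc2 was higher in Control than in WT by 0.45 ± 0.10 (adjusted p = 0.0202) and lower in CypD OE than in Control by 0.52 ± 0.10 (adjusted p = 0.00779). The Uqcc1 calls were lost without Control replicate 1 (-0.31 in Control against WT, 0.28 in CypD OE), that against WT also without WT replicate 2 (-0.28), and that in CypD OE also without CypD OE replicate 2 (0.24). Those of Uqcc2 were lost in CypD OE without CypD OE replicate 2 (-0.44), and in Control against WT without Control replicate 1 (0.51), Control replicate 2 (0.40) or WT replicate 2 (0.36). Cycs, the cytochrome c gene, passed the test in CypD KO, where it rose from 451 and 479 TPM in WT to 534 and 592 (0.27 ± 0.06, adjusted p = 0.00939), with 495 and 456 TPM in Control and 498 and 496 in CypD OE. Whether the change differed between comparisons was not tested.

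In complex IV 8 of 11 tested genes were higher and 1 lower in CypD KO, with a median log2 fold change of 0.34. In CypD OE 2 were higher and 8 lower, with a median of -0.27, and in Control against WT 5 were higher and 1 lower. Over all tested genes, 30.1% were higher and 18.4% lower in CypD KO. The shares were 19.0% and 18.3% in CypD OE and 12.1% and 12.1% in Control against WT. In that last comparison the calls of Cox6a1 and Cox7a2 were lost without single libraries: Cox6a1 without Control replicate 2 (0.26), WT replicate 1 (0.28) or WT replicate 2 (0.31), and Cox7a2 without Control replicate 1 (0.29) or Control replicate 2 (0.28). Cox6a1 (chr5:115483701-115487050), the ubiquitous form of a regulatory subunit, stood at 226 and 229 TPM in WT and 379 and 380 in CypD KO. At 1% O2, Control had 272 and 286 TPM and CypD OE 218 and 247. Cox6a1 rose by 0.74 ± 0.06 in CypD KO (limma adjusted p = 9.24e-05), the largest increase of a member that passed the test in this comparison. It also rose by 0.29 ± 0.06 in Control against WT (adjusted p = 0.0123), and it fell by 0.27 ± 0.06 in CypD OE (adjusted p = 0.0112). Cox6c had 489 and 468 TPM in WT and 663 and 690 in CypD KO. The Control libraries had 555 and 527 TPM and the CypD OE libraries 431 and 426. This was a rise of 0.50 ± 0.04 in CypD KO (adjusted p = 8.17e-05) and a fall of 0.33 ± 0.04 in CypD OE (adjusted p = 0.000783). Cox7c (chr13:86189246-86195023), whose promoter is printed earlier, had 354 and 332 TPM in WT and 506 and 501 in CypD KO. Levels in Control were 348 and 355 TPM and in CypD OE 470 and 468. Cox7c was the complex IV member that rose in both CypD comparisons, by 0.55 ± 0.03 (adjusted p = 3.5e-05) and by 0.42 ± 0.03 (adjusted p = 0.0002). Cox5b (chr1:36730530-36734495), a zinc-binding subunit, was the 1 complex IV gene that fell in CypD KO: it had 625 and 593 TPM in WT and 470 and 477 in CypD KO. Control had 618 and 613 TPM and CypD OE 502 and 473. The falls were 0.36 ± 0.04 (adjusted p = 0.000362) and 0.34 ± 0.04 (adjusted p = 0.000803).

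The other tested complex IV genes were Cox5a, Cox6b1, Cox7a2, Cox7b and Cox8a, which were higher in CypD KO and lower in CypD OE, Cox7a2l, and the pseudogene Cox6c2. Cox6b1, the most abundant, had 571 and 564 TPM in WT and 661 and 626 in CypD KO. The levels were 574 and 613 TPM in Control and 510 and 472 in CypD OE. Cox6b1 rose by 0.18 ± 0.05 in CypD KO and fell by 0.27 ± 0.05 in CypD OE. Cox7a2 had 315 and 280 TPM in WT and 378 and 372 in CypD KO. In Control the levels were 360 and 362 TPM, and in CypD OE 277 and 294. Cox7a2 was higher in Control than in WT by 0.28 ± 0.06 (limma adjusted p = 0.0136). Cox7b had 343 and 356 TPM in WT and 448 and 423 in CypD KO, and Cox8a 203 and 220 TPM in WT and 292 and 282 in CypD KO. Cox5a levels were 250 and 231 TPM in WT and 306 and 293 in CypD KO, and 266 and 276 in Control and 224 and 217 in CypD OE. Cox7b and Cox8a were also below their Control levels in CypD OE, with Cox7b at 322 and 323 TPM against 357 and 380, and Cox8a at 224 and 215 TPM against 246 and 248. Cox7a2l, which is known for joining complexes III and IV, had 161 and 163 TPM in WT and 159 and 155 in CypD KO. At 1% O2, Control had 145 and 144 TPM and CypD OE 157 and 160. Cox7a2l was lower in Control than in WT (-0.17 ± 0.03, adjusted p = 0.0089) and higher in CypD OE than in Control (0.13 ± 0.03, adjusted p = 0.0131). Cox6c2 gave 1.92 to 25.5 TPM with wide spread within groups and passed the test in no comparison; reads shared with Cox6c make it uncertain.

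The tissue-specific forms of complex IV subunits were near 0. Cox6a2, known from heart and skeletal muscle, was listed at 0 to 0.20 TPM, Cox7a1, another muscle form, at 0 to 0.930 TPM, and Cox6b2, known from testis, at 0 to 0.540 TPM. Cox7b2, Cox8b and Cox8c were listed at 0 in every library. The ubiquitous forms took at least 99.7% of their families' TPM in every library.

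Complex V had 3 of 17 tested genes higher and 4 lower in CypD KO, and 4 higher and 2 lower in Control against WT. In CypD KO the higher count was below the 30.1% of all tested genes that were higher. Over all tested genes 18.4% were lower in that comparison. The shares higher and lower were 19.0% and 18.3% in CypD OE and 12.1% and 12.1% in Control against WT. In CypD OE limma called 0 higher and 11 lower. At an unadjusted p under 0.05 these were 0 and 12. Every log2 fold change of the complex was at or below -0.03, so no test could have called a gene higher. The catalytic beta subunit Atp5b was the most abundant of all members, at 1012 and 998 TPM in WT and 1013 and 1002 in CypD KO. The Control libraries had 1032 and 1083 TPM and the CypD OE libraries 921 and 919. Atp5b fell in CypD OE by 0.20 ± 0.03 (limma adjusted p = 0.00194). Atp5a1, the alpha subunit, had 508 and 496 TPM in WT and 389 and 384 in CypD KO. Levels in Control were 459 and 465 TPM and in CypD OE 452 and 442. Atp5a1 had the largest fall of any member in CypD KO, by 0.38 ± 0.03 (adjusted p = 6.33e-05), while the beta subunit, its partner in the catalytic head, differed by 0.00 ± 0.03 (adjusted p = 0.937). Atp5e (chr2:174302861-174305906), the epsilon subunit of the central stalk, had 220 and 200 TPM in WT and 213 and 214 in CypD KO. Control had 214 and 269 TPM and CypD OE 170 and 154. This was a fall of 0.57 ± 0.11 in CypD OE (adjusted p = 0.00686). Atp5h, a subunit of the peripheral stalk, had 425 and 409 TPM in WT and 564 and 560 in CypD KO. The levels were 507 and 505 TPM in Control and 417 and 444 in CypD OE. This was a rise of 0.43 ± 0.04 in CypD KO (adjusted p = 0.000128) and a fall of 0.23 ± 0.04 in CypD OE (adjusted p = 0.00299). Atp5md, a small membrane subunit, had 763 and 700 TPM in WT and 843 and 865 in CypD KO. In Control the levels were 886 and 825 TPM, and in CypD OE 683 and 683. Atp5md rose by 0.22 ± 0.05 in CypD KO (adjusted p = 0.00886) and fell by 0.33 ± 0.05 in CypD OE (adjusted p = 0.00261).

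Other complex V genes also differed. Atp5c1, the gamma subunit that turns in the catalytic head, had 478 and 468 TPM in WT and 429 and 428 in CypD KO, and 453 and 474 in Control and 430 and 421 in CypD OE. Atp5c1 was lower in both CypD comparisons (-0.14 ± 0.03 and -0.12 ± 0.03), the second of which was -0.06 and no longer passed the test without the mitochondrially encoded and rRNA rows. Atp5o, a stalk subunit, had 445 and 450 TPM in WT and 417 and 420 in CypD KO, and 474 and 485 in Control and 419 and 424 in CypD OE. Atp5o was also lower in both (-0.09 ± 0.03 and -0.19 ± 0.03). Atp5pb, the stalk subunit b, had 491 and 479 TPM in WT and 528 and 536 in CypD KO, and 468 and 445 in Control and 393 and 403 in CypD OE. Atp5j2 and Atp5mpl fell in CypD OE, by 0.45 ± 0.08 and 0.34 ± 0.06, and passed no other test. Atp5d, Atp5g1, Atp5j, Atp5k and Atp5l, like Uqcrq and Uqcc3 of complex III, passed the test in no comparison.

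The proton-carrying c subunit is encoded by 3 genes, Atp5g1, Atp5g2 and Atp5g3, which make the same mature protein. Their summed level was 999 and 956 TPM in WT and 886 and 856 in CypD KO. At 1% O2, Control had 916 and 959 TPM and CypD OE 729 and 686. Atp5g3, the main gene, had 624 and 585 TPM in WT and 513 and 501 in CypD KO. The Control libraries had 528 and 549 TPM and the CypD OE libraries 420 and 389. Atp5g3 was lower in all 3 comparisons, by 0.25 in CypD KO, 0.41 in CypD OE and 0.17 in Control against WT on the log2 scale. The last of these was close to the threshold (limma adjusted p = 0.0487). Atp5g2 (chr15:102571295-102580787) had 241 and 230 TPM in WT and 225 and 223 in CypD KO. Levels in Control were 268 and 276 TPM and in CypD OE 191 and 188. Atp5g2 was higher in Control than in WT by 0.21 ± 0.03 (limma adjusted p = 0.00627) and lower in CypD OE than in Control by 0.51 ± 0.03 (adjusted p = 7.95e-05). Atp5g1 had 134 and 142 TPM in WT and 149 and 132 in CypD KO. Control had 121 and 134 TPM and CypD OE 117 and 108. Atp5g1 passed the test in no comparison. Atp5g3 made up 62.4% and 61.2% of the family in WT and 56.7% to 58.5% in every other library. Atp5g2 made up 24.1% and 24.0% in WT and 29.2% and 28.7% in Control. Atpif1 (Atp5if1), which inhibits the enzyme and lies outside the rule, had 258 and 260 TPM in WT and 371 and 389 in CypD KO, a rise of 0.55 ± 0.04 (adjusted p = 4.24e-05), and 253 and 245 in Control and 254 and 244 in CypD OE.

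CypD KO with WT and CypD OE with Control share no library. Of the 19 members that were higher in CypD KO, 16 (84.2%) were lower in CypD OE, and these were 59.3% of the 27 lower in CypD OE. Over all tested genes, 1030 were higher in CypD KO and lower in CypD OE, 25.3% of the 4066 and 41.5% of the 2481. The 16 members were Atp5h, Atp5md, Atp5pb, Cox5a, Cox6a1, Cox6b1, Cox6c, Cox7a2, Cox7b, Cox8a, Sdhaf2, Sdhaf4, Sdhc, Uqcr10, Uqcr11 and Uqcrh. Cox7c and Uqcrb were higher in both. They were 10.5% of the 19 and 33.3% of the 6 higher in CypD OE, against 21.8% and 34.5% over all genes. Atp5c1, Atp5g3, Atp5o and Cox5b were lower in both. They were 50.0% of the 8 lower in CypD KO and 14.8% of the 27, against 21.8% and 21.8% over all genes. Of the 2486 genes lower in CypD KO, 694 (27.9%) were higher in CypD OE. With limma on the deposited scale, 0 members were lower in CypD KO and higher in CypD OE, and 0 at an unadjusted p under 0.05. After the median-of-ratios rescaling 2 were, Cox7a2l and Uqcc1. Under that rescaling 10 members were higher in CypD KO and lower in CypD OE, without Atp5md, Atp5pb, Cox6b1, Sdhaf4, Sdhc and Uqcrh. Those lower in both were then 7, as Atp5b, Atp5g2 and Cyc1 joined the 4, and Cox7c was the 1 gene higher in both. Without the mitochondrially encoded and rRNA rows, 14 were higher in CypD KO and lower in CypD OE, and 3 were lower in both.

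**Figure D3:**
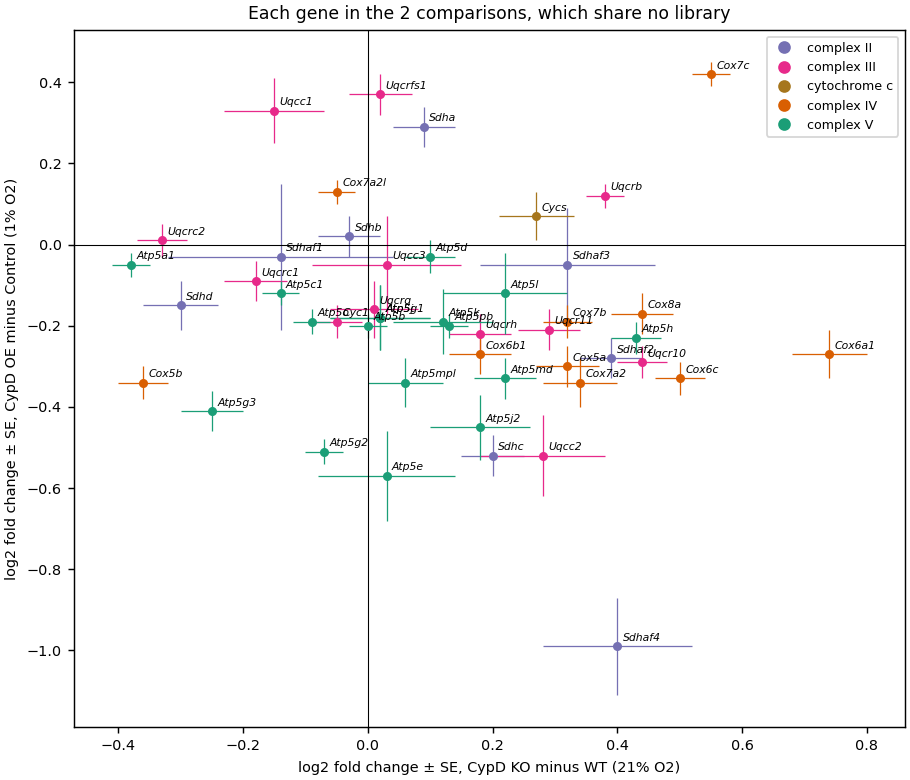
Log2 fold change ± SE of each gene in CypD KO minus WT (x) against CypD OE minus Control (y), coloured by complex, with the pseudogene Cox6c2 left out. The 16 genes higher in CypD KO and lower in CypD OE lie at the lower right, Cox7c lies highest, at the upper right, and Sdhaf4 lies lowest.

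All 4 tested members on chromosome 13, Sdha, Uqcrb, Uqcrfs1 and Cox7c, were higher in CypD OE than in Control, and they made up 4 of the 6 that were higher. The median log2 fold change of the 504 tested genes on that chromosome was 0.25 in this comparison, the highest of any chromosome, and 0.20 in CypD KO against WT. After that median was subtracted, the log2 differences in CypD OE were 0.17 for Cox7c, 0.12 for Uqcrfs1, 0.04 for Sdha and -0.14 for Uqcrb, and 0.35 for Cox7c in CypD KO. On chromosome 15, where the median was -0.18 in CypD OE, all 3 tested members were lower: after subtraction Atp5g2 was at -0.33, Cox6c at -0.16 and Cyc1 at -0.01. In CypD KO the highest median was that of chromosome 6, at 0.26, and it was 0.21 there in CypD OE. Cycs lies on this chromosome, and its rise of 0.27 in CypD KO was 0.01 after subtraction. Of the 27 members called in CypD KO, 1 changed sign after subtraction, Atp5pb on chromosome 3 (0.13 before and -0.08 after), and of the 33 called in CypD OE 1 did, Uqcrb. The part of the chromosome medians in these results was not tested.

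The direction of change also went with the length of the coding sequence, a split made after the values were seen. In CypD KO, 8 of 13 tested members with a coding sequence of at most 300 bases were higher and 0 were lower, with a median log2 fold change of 0.18, as over the 216 genes of that length (0.18, with 39.8% higher and 13.9% lower). Of 22 members of 300 to 600 bases, 10 were higher and 3 lower (median 0.21, against 0.10 over 1273 genes, of which 35.9% were higher and 21.4% lower). Of 13 members over 600 bases, 1 was higher and 5 were lower (median -0.05, against 0.09 over 9807 genes, of which 32.7% were higher and 20.7% lower). In CypD OE the medians of the 3 classes were -0.22, -0.25 and -0.05, against -0.11, -0.06 and 0.02 over all genes of each length. The part of length in the results was not tested.

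**Figure D4:**
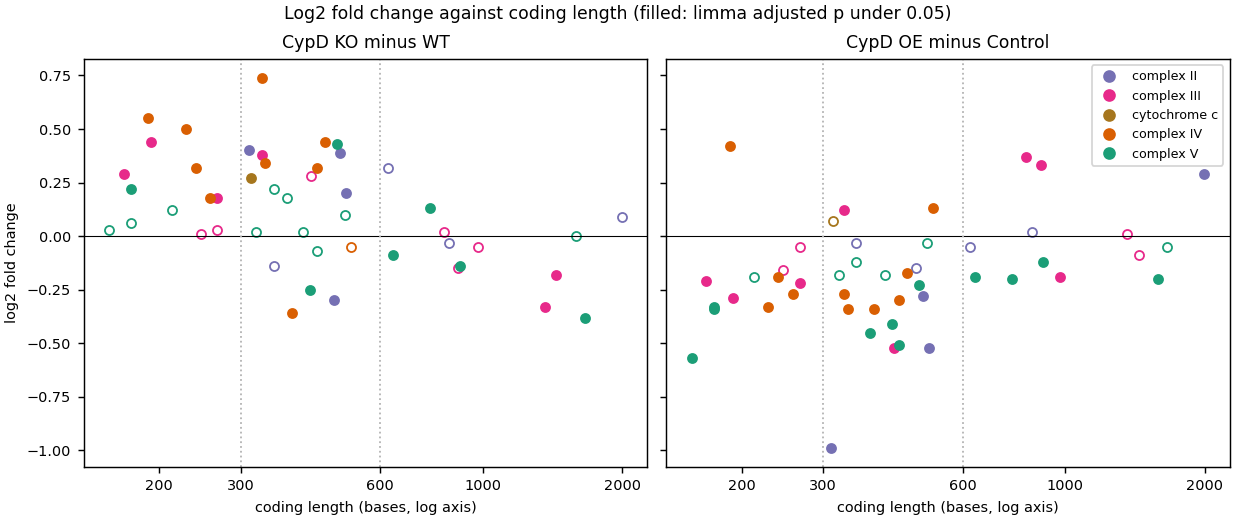
Log2 fold change (y) against coding length in bases on a log axis (x) for CypD KO against WT (left) and CypD OE against Control (right), coloured by complex, filled for a limma adjusted p under 0.05; dotted lines mark 300 and 600 bases. In CypD KO the genes over 600 bases lie mostly below the shorter ones, with medians of -0.05 against 0.18 and 0.21.

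Summed by complex, the complex IV members had 3541 and 3445 TPM in WT and 4274 and 4225 in CypD KO. The levels were 3760 and 3809 TPM in Control and 3347 and 3297 in CypD OE. Here the CypD KO libraries were the highest and the CypD OE libraries the lowest. The complex V members had 7292 and 6965 TPM in WT and 7271 and 7330 in CypD KO. In Control the levels were 7305 and 7596 TPM, and in CypD OE 6327 and 6218. The complex II sums ranged from 746 to 803 TPM over all libraries. The sums are given as a description with no test; an exact permutation test of 2 libraries against 2 cannot go below p = 0.333. Of the 13 mitochondrially encoded subunits, 10 were higher and 1 lower in CypD OE than in Control, 2 higher and 2 lower in CypD KO than in WT, and 1 higher and 7 lower in Control than in WT. The shares of all tested genes higher and lower were 19.0% and 18.3%, 30.1% and 18.4%, and 12.1% and 12.1% in these comparisons. For complex IV, the ratio of mitochondrially encoded to nuclear TPM was 4.72 and 5.0 in WT, 4.74 and 5.08 in CypD KO, 5.61 and 5.13 in Control and 5.85 and 6.42 in CypD OE. For complex III, whose ratio rests on 1 mitochondrial gene, it was 4.82 and 5.20 in WT, 4.06 and 4.28 in CypD KO, 3.54 and 3.18 in Control and 6.20 and 6.58 in CypD OE. For complex V most of the mitochondrial TPM was from mt-Atp8, a transcript of 204 bases that overlaps mt-Atp6. Over 8 libraries mt-Atp8 averaged 46328 TPM and mt-Atp6 3520, so the complex V ratio rests mainly on 1 short gene. How reads were divided between these genes was not tested. The ratio was 7.01 and 7.19 in WT and 6.13 and 6.11 in CypD KO. In Control the ratio was 5.93 and 5.60, and in CypD OE 9.51 and 9.99. Without the mitochondrially encoded and rRNA rows in the scaling, the members' median in CypD OE was -0.13 and complex V still had 10 lower and 0 higher genes. The CypD OE calls of Atp5c1 (-0.06, adjusted p = 0.103), Cox8a (-0.11, adjusted p = 0.0832) and Uqcr11 (-0.15, adjusted p = 0.0501) were lost with limma in that scaling. TPM is a share of each library, and the mitochondrial genome took 9.5% to 13.7% of it.

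**Figure D5:**
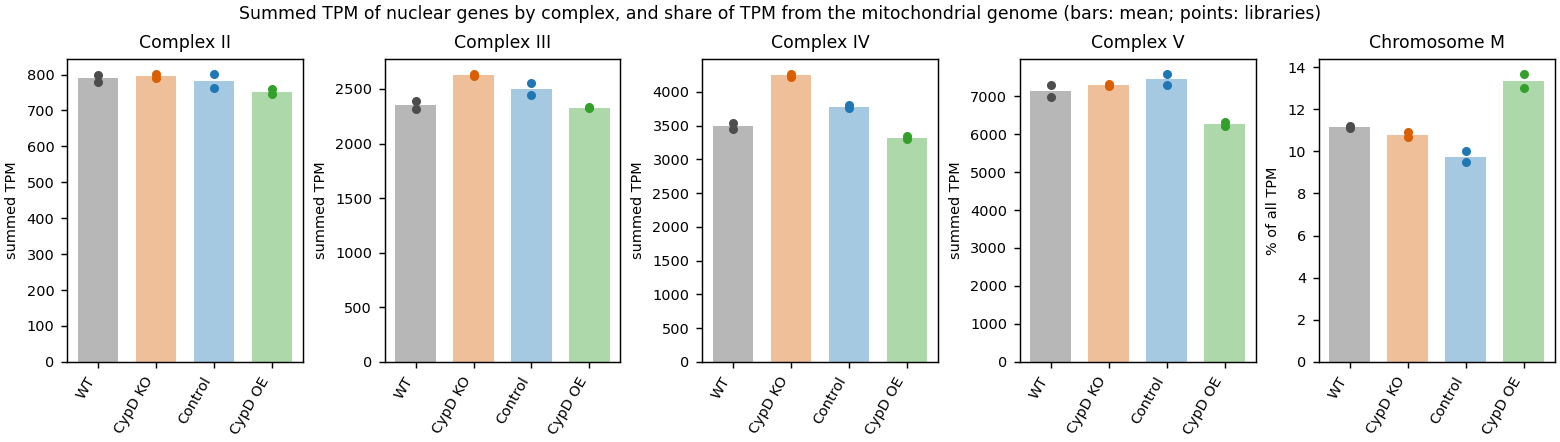
Summed TPM of the nuclear members of complexes II to V and the percent of all TPM from the mitochondrial genome (y) in the 4 groups (x), with bars for the mean of 2 libraries and points for each library, all axes from 0. Complex IV is highest in CypD KO (4274 and 4225 TPM) and complex V lowest in CypD OE (6327 and 6218 TPM), where the mitochondrial share is highest.

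Genes of the same pathway outside the rule were read from lists that were compiled with earlier results known. For all tested genes the shares higher and lower were 30.1% and 18.4% in CypD KO, 19.0% and 18.3% in CypD OE, and 12.1% and 12.1% in Control. Of 37 nuclear subunits of complex I, the entry point for electrons from NADH, 19 were higher and 4 lower in CypD KO, 2 higher and 19 lower in CypD OE, and 13 higher and 1 lower in Control against WT. Of the complex IV genes outside the rule, Cox4i1 had 375 and 364 TPM in WT and 481 and 468 in CypD KO. The Control libraries had 412 and 428 TPM and the CypD OE libraries 359 and 346. This is the order of the complex IV sum. Ndufa4, an accessory subunit of complex IV, had 651 and 656 TPM in WT, 818 and 813 in CypD KO, 654 and 729 in Control and 809 and 760 in CypD OE, and rose in both CypD comparisons (0.32 and 0.18). Ndufa4 lies on chromosome 6, and with that chromosome's median subtracted the differences were 0.06 and -0.03. Higd1a, a hypoxia-inducible protein that associates with complex IV, had 52.3 and 51.2 TPM in WT and 142 and 137 in CypD KO. Levels in Control were 231 and 243 TPM and in CypD OE 51.5 and 47.8. The lung form Cox4i2 was at most 0.330 TPM. Of 24 cytochrome oxidase assembly genes, 2 were higher and 8 lower in CypD KO, 3 higher and 4 lower in CypD OE, and 2 higher and 5 lower in Control against WT. Of 5 complex V assembly genes, 1 was higher and 1 lower in CypD KO, and 0 were higher and 2 lower in CypD OE. Of 12 regulators of mitochondrial genes, 1 was higher and 5 lower in CypD KO, 3 higher and 2 lower in CypD OE, and 1 higher and 2 lower in Control. In CypD OE and in Control these counts were near the shares over all tested genes. Among the regulators Ppargc1a, a coactivator of mitochondrial biogenesis, had 29.1 and 32.0 TPM in WT and 28.2 and 25.3 in CypD KO. Control had 52.4 and 49.0 TPM and CypD OE 9.76 and 9.75. This was a fall of 2.26 ± 0.08 on the log2 scale in CypD OE (limma adjusted p = 4.67e-06), and Yy1 fell by 0.24 (adjusted p = 0.0156). The 3 regulators higher in CypD OE were Myc (0.75, adjusted p = 6.38e-05), Pprc1 (0.52, adjusted p = 0.00272) and Esrra (0.38, adjusted p = 0.0372). In CypD KO Myc was among the 5 that were lower (-1.08, adjusted p = 8.46e-06), and Ppargc1a did not pass the test (-0.19). The part of these regulators in the results was not tested.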

How the data were processed

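Total RNA was depleted of ribosomal RNA and sequenced in paired ends by the authors, who trimmed reads with cutadapt 3.4, aligned them with STAR 2.7.8a to GRCm39 and estimated expression with RSEM 1.3.1, per the labels and the study's methods. The authors' deposited values are TPM per gene and library, each library scaled to the same total and written to 2 decimals; the total number of reads is not in this unit, so no counting interval could be given. RSEM divides reads that match several genes, so genes with processed copies are uncertain. The submitters' processing notes also name DESeq2 1.26.0; read counts were not used here. No column was left without a library (0).

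The 55414 rows were read by symbol, and 54749 (98.8%) matched GENCODE vM39. Groups came from the sample labels. Testing used limma 3.58.1 (R 4.3.3) on log2(TPM + 1) for the 13526 genes that reached 1 TPM in 2 or more libraries (means of 4 groups, eBayes with a trend, two-sided, Benjamini-Hochberg adjustment over all genes tested, threshold 0.05). A fold change on this scale understates the change of low genes. The fit was tested on simulated data. The members were taken by gene symbol and not by their values, though earlier results of these data were known. Lists and the coding length split were also chosen with those results known. Any member could be named; all libraries are given for the 4 largest increases and decreases past the threshold in each comparison, the most abundant genes of each complex and the subunit isoforms. Promoters came from RefSeq (GRCm38.p6). Alternatives were another pseudocount, filters, scalings, fits, each library left out, and chromosome or length corrections.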

Additional observations from a re-analysis of the deposited data

How the results depend on the processing

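Several counts and medians depended on the scale or the fit. In CypD KO against WT, median-of-ratios rescaling gave 12 members higher, 14 lower and a median log2 fold change of 0.01, and no called member changed sign; eBayes without a trend gave 5 lower, and limma's treat against a log2 fold change of 0.2 gave 8 higher and 3 lower. The median was 0.01 after subtraction of chromosome medians, -0.03 after a loess fit on transcript length and -0.09 after one on coding length, so its sign depended on the length correction. In CypD OE against Control, the median was -0.13 without mitochondrially encoded and rRNA rows and -0.11 after the coding length fit, and treat gave 2 higher and 7 lower. In Control against WT, no filter on low TPM gave 4 lower, the fit of the 4 libraries of the comparison gave 6 higher and 2 lower, eBayes without a trend 7 higher and 2 lower, and treat 0 higher and 0 lower (2 higher and 1 lower at an unadjusted p under 0.05; limma's eBayes gave 13 and 7), and the coding length fit a median of -0.03. The coding length fit was chosen after seeing the data.

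With 1 library left out, the remaining library is assumed to vary like the other groups. In CypD KO against WT, 15 to 17 members were higher and 6 to 7 lower, with medians of 0.10 to 0.16. In CypD OE against Control, 3 to 6 were higher and 20 to 28 lower, with medians of -0.24 to -0.16; 3 were higher without CypD OE replicate 2 and also without Control replicate 1. In Control against WT, 5 to 12 were higher and 2 to 5 lower, with medians of 0.03 to 0.11: 9 and 3 without Control replicate 1, 6 and 4 without Control replicate 2, 12 and 2 without WT replicate 1, and 5 and 5 without WT replicate 2. Of 336 values of single named genes under the alternatives, 295 counted as kept, with the same direction and side of the threshold. Values after chromosome or transcript length correction had no p-value and counted as kept when they shifted by less than 0.10. A further 32 values fell short of the threshold, 9 moved by at least 0.10 after those corrections, and 0 reversed. All but 4 of the 32 were in Control against WT, and the others were Uqcc1 and Uqcc2 in CypD OE.

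With the replicate block, 19 members were higher and 8 lower in CypD KO, 6 higher and 27 lower in CypD OE, and 12 higher and 6 lower in Control against WT. It lost the calls of Sdhaf4 in CypD KO (adjusted p = 0.0529) and of Cox5a (0.0503) and Atp5g3 (0.0534) in Control against WT, and gained Uqcc2 in CypD KO (0.0389). The replicate numbers share only a name: correlations of same-numbered deviations were -0.030 to 0.108. The cause of these dependences was not tested.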
